A study of Mus musculus with 108 samples.

Results

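Macrophages that entered brain metastases from the blood were set against the microglia of the same tumours. Both populations were sorted by flow cytometry from the brains of mice carrying a lung-to-brain metastasis that had received no radiotherapy. The members are 20 of the 108 libraries of the series: 10 labelled bone marrow-derived macrophage (BMDM), with 5 at the small and 5 at the large tumour stage, and 10 labelled microglia, with 5 at each stage. The compared value for each population is the mean of its small and large groups, so neither stage weighs more than the other. The study profiled myeloid cells of the tumours and their counterparts from tumour-free brain and blood, through tumour growth and whole-brain radiotherapy. Every mouse was an athymic nude animal on a Balb/C background (CAnN.Cg-Foxn1nu/Crl), which carries the nude mutation of Foxn1, so both populations come from hosts that lack a thymus and make few T cells. Neither the ages of the mice, the tumour cells used nor the surface markers that defined the sorts are given in the sources used here, so a gene that the sort selected on cannot be told apart from the others. The label BMDM names cells taken from the tumour and not macrophages grown from marrow in culture. No label states whether each library stems from its own animal, and the p-values below therefore measure the spread between these libraries, which may be technical.

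Microglia are the resident macrophages of the brain. They arise from precursors that settle there in the embryo, renew themselves locally, and hold their identity through signals such as TGF-beta and CSF1 receptor ligands and through transcription factors such as Sall1. Macrophages from the blood arise from bone marrow monocytes, which enter the brain when a tumour grows there and take on part of the resident programme while keeping genes of their own origin. Classical dendritic cells, which also come from the marrow, share many surface genes with such macrophages and are set apart by genes such as Flt3, Zbtb46 and Xcr1.

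The 20 libraries held between 7059127 and 18099551 counts over genes, and the 10 BMDM libraries had a median of 10780135 and the 10 microglia libraries of 11341965.5. Large_BMDM 2 detected 31357 genes, small_Microglia 1 32827 and small_Microglia 4 34629, while the other 17 libraries detected between 14411 (small_BMDM 2) and 23070. Ribosomal protein genes took 0.381% to 1.05% of the counts in BMDM libraries and 0.220% to 0.840% in microglia libraries, and no library held mitochondrial counts. The highest ribosomal share of each group stood apart: small_BMDM 4 (1.05%), large_BMDM 5 (0.922%), small_Microglia 3 (0.840%) and large_Microglia 5 (0.823%). Every other library was at or below 0.676% (small_BMDM 2). Whether these libraries share a batch is not labelled and was not tested. Large_BMDM 5 stood nearer to microglia than the other 9 BMDM libraries: it had 113 CPM of the microglial factor Sall1, against at most 27.9 CPM in the others of its population, and 5959.7 CPM of Csf1r, the receptor that macrophages depend on for survival. No pair of libraries held identical values.

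Of 15103 genes with enough counts to be tested, 4513 differed between BMDM and microglia (29.9%), at an adjusted p under 0.05 in edgeR's quasi-likelihood test with Benjamini-Hochberg adjustment over all of them. Of these, 2433 were higher in BMDM (16.1%) and 2080 were lower (13.8%). The counts of called members in each gene list below are to be read against these shares, and a count near them is no trait of its list. The differences were larger on the higher side: 159 genes were more than 32 times as high in BMDM as in microglia (log2 fold change above 5), and 3 genes were below the same limit in the other direction. In 647 genes (4.28%), no BMDM library overlapped any microglia library, with 445 of them higher (2.95%) and 202 lower (1.34%). The median log2 fold change over all tested genes was -0.04. With the tumour monocytes and granulocytes in the same fit, which then share 1 estimate of the spread, 2192 genes were called, 1538 higher and 654 lower. Calls lost in that fit among the genes described below were those of Mef2a, Mef2c, Trem2, Ctss, Ctsf, C1qa, C1qc, Tlr3, Tlr7, Tap1, Hpgds, Pdgfb, Prc1, Gins1 and Nbea, at adjusted p values of 0.0546 to 0.338. Leaving out 1 library at a time gave 3766 called genes (without large_Microglia 4) to 4795 (without large_BMDM 5). Levels below are counts per 1000000 (CPM) after TMM scaling, differences are log2 fold changes of BMDM over microglia with their standard error, and 3 levels given for a population are its lowest, median and highest library. Since these are sorted cells measured in bulk, fewer cells of a type and less RNA per cell cannot be told apart.

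**Figure D1:**
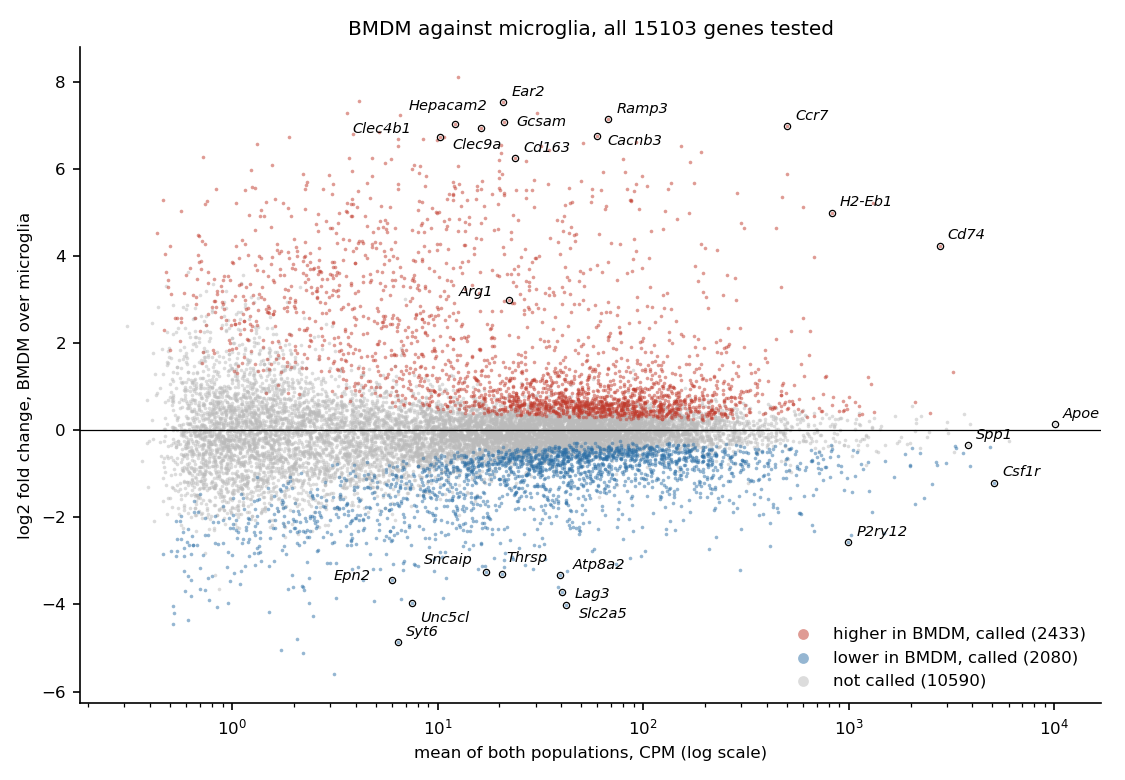
Log2 fold change of BMDM over microglia (vertical axis) against the mean of both populations in CPM (horizontal axis, log scale) for the 15103 tested genes, 1 point per gene, with genes called higher in BMDM in red, called lower in blue and not called in grey. Among the named genes the points reach a log2 fold change of 7.53 at Ear2 and -4.86 at Syt6, and abundant genes such as Apoe and Spp1 lie near 0.

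The genes that define resting microglia were lower in BMDM almost without exception. Of 19 homeostatic microglia genes tested, 18 were lower in BMDM, with a median log2 fold change of -1.92, against 13.8% called lower among all genes. P2ry12, the purine receptor that guides microglial processes, had 90.998, 231 and 622 CPM in BMDM, against 867, 1756 and 2789 CPM in microglia. Tmem119, a membrane protein used to identify microglia, had 152, 294 and 626 CPM in BMDM, against 1041, 1715 and 2872 CPM in microglia. The populations did not overlap in either gene, and the step between the lowest microglia library and the highest BMDM library was wider in Tmem119 than in P2ry12. The log2 fold changes were -2.57 ± 0.33 for P2ry12 (edgeR, adjusted p = 5.53e-06) and -2.40 ± 0.28 for Tmem119 (adjusted p = 2.02e-06). Golm1, a Golgi membrane protein, had 149, 224 and 456 CPM in BMDM, against 598, 860.3 and 1502 CPM in microglia, again with no overlap (-1.92 ± 0.19, adjusted p = 3.50e-07). Siglech, a sialic acid-binding lectin shared by microglia and plasmacytoid dendritic cells, had 52.6, 210.2 and 558 CPM in BMDM, against 576, 1206 and 1529 CPM in microglia, and these groups came close to each other without overlapping (-2.18 ± 0.30, adjusted p = 1.42e-05). Cx3cr1, the fractalkine receptor that both populations carry, was lower by less (-1.69 ± 0.26, adjusted p = 4.78e-05), with 1004 ± 515 CPM in BMDM and 3185 ± 680.5 CPM in microglia (SD, n = 10 each). The 1 member that did not pass was Fcrls, an Fc receptor-like scavenger gene, with 349 ± 228 CPM in BMDM and 453 ± 148 CPM in microglia (-0.38 ± 0.31, adjusted p = 0.378).

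BMDM nevertheless held P2ry12 and Tmem119 at levels well above 0. Not every member of the list did so: Slc2a5 and Lag3 had means of 4.64 and 5.70 CPM in BMDM. When scaled together with the other sorted populations, BMDM averaged 276 ± 169 CPM of P2ry12 and 312 ± 176 CPM of Tmem119 (SD, n = 10). Monocytes sorted from the blood of tumour-free mice had 33.7 ± 19.5 CPM of P2ry12 and 14.3 ± 10.6 CPM of Tmem119 (SD, n = 4), and microglia of tumour-free brain had 2525 ± 1835 CPM and 2272 ± 940.3 CPM (n = 4). Some libraries of these tumour-free populations stood apart, and values without them, chosen after they were seen, are given too. Of the blood monocytes, 3 of the 4 libraries detected 31615 to 37161 genes at 1911008 to 5272094 counts, Control_MG 2 detected 30933 genes, and Control_MG 3 held 985423 counts. Of the others, blood monocyte library 4 had 15.6 CPM of P2ry12 and 2.04 CPM of Tmem119. Control_MG 1 and 4 had 4064 and 4162 CPM of P2ry12, and 3091 and 3077 CPM of Tmem119. How much of this BMDM level comes from BMDM themselves and how much from microglia in the sort was not tested.

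Among 12 transcription factors of microglia, 9 were lower in BMDM and none was higher, with a median log2 fold change of -0.79. Sall1, the factor that maintains microglial identity, had 3.52, 11.5 and 113 CPM in BMDM, against 91.3, 138 and 342 CPM in microglia. Its groups overlapped through 1 library, large_BMDM 5, and the difference was -2.92 ± 0.50 (edgeR, adjusted p = 0.000159). Its relative Sall3 was lower by about as much (-2.97 ± 0.62, adjusted p = 0.00110), with 6.51 ± 8.14 CPM in BMDM and 35.5 ± 14.3 CPM in microglia. Mef2c, which restrains microglial responses, had 204, 304 and 380.1 CPM in BMDM, against 443, 496 and 731 CPM in microglia: the groups did not overlap, although the difference was much smaller (-0.81 ± 0.12, adjusted p = 4.22e-05). Mef2a (-0.76 ± 0.14, adjusted p = 0.000274), Runx1 (-0.62 ± 0.12, adjusted p = 0.000521) and the immediate early factor Egr1 (-1.56 ± 0.33, adjusted p = 0.00114) were also lower. The factors that every macrophage needs were not called: Spi1, which encodes PU.1, had 331 ± 44.9 CPM in BMDM and 303 ± 41.9 CPM in microglia (0.13 ± 0.11, adjusted p = 0.403). Maf had 81.8 ± 40.1 CPM in BMDM and 87.9 ± 14.7 CPM in microglia (-0.11 ± 0.21, adjusted p = 0.750). Irf8, a partner of PU.1, was not called either (-0.26 ± 0.15, adjusted p = 0.215), but it passed without small_BMDM 2, at an adjusted p of 0.0102.

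**Figure D2:**
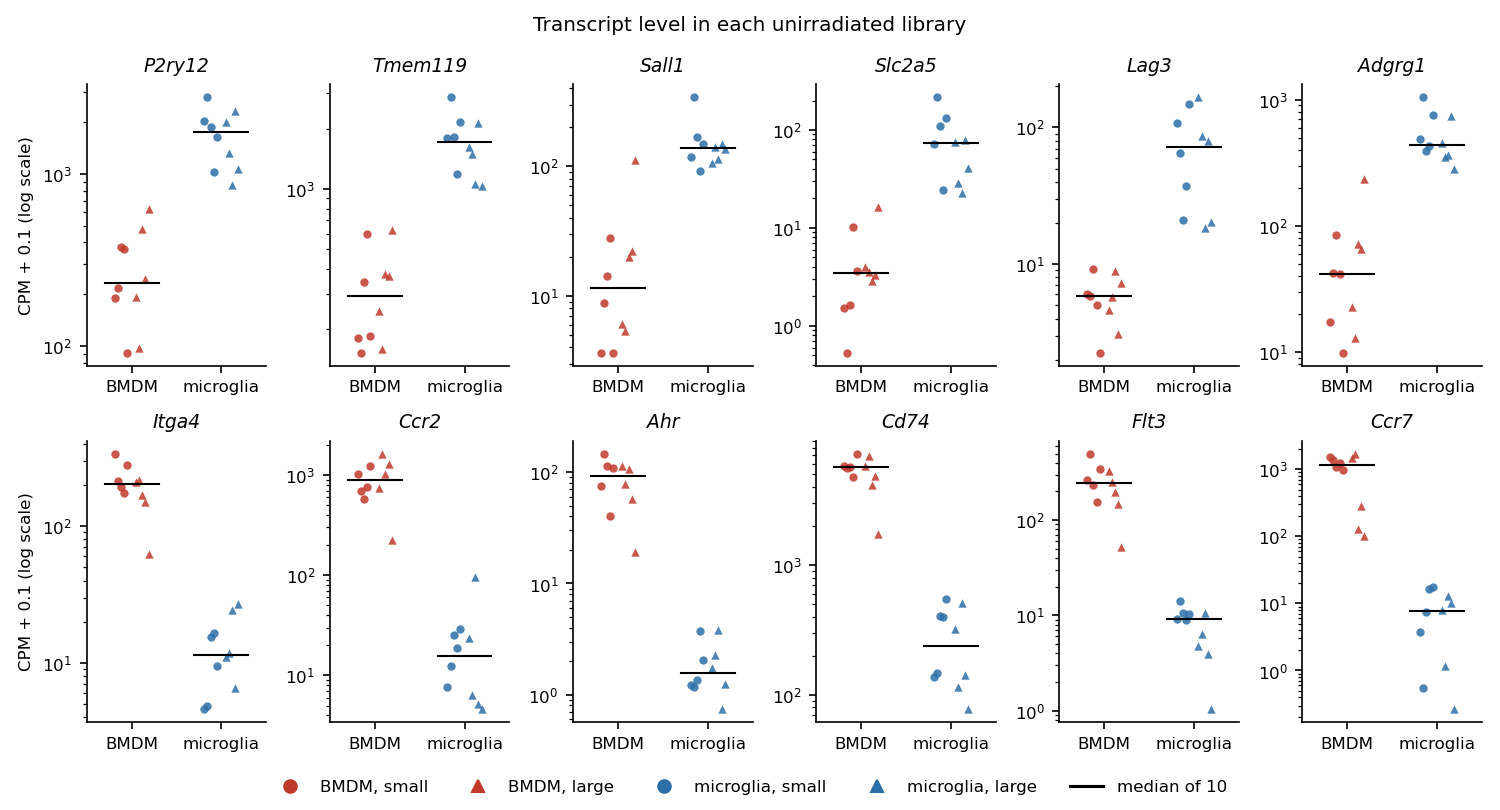
Levels of 12 genes in each of the 20 libraries, as CPM plus 0.1 on a log axis, with BMDM on the left and microglia on the right of each panel, small-stage libraries as circles, large-stage libraries as triangles and the median of 10 as a bar. P2ry12, Tmem119, Slc2a5, Lag3 and Adgrg1 lie lower in every BMDM library than in any microglia library, Sall1 overlaps through 1 BMDM library, and Itga4, Ccr2, Ahr, Cd74, Flt3 and Ccr7 lie higher in every BMDM library.

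The genes of recruited macrophages were higher in BMDM throughout: 22 of 22 passed, with a median log2 fold change of 4.16, against 16.1% called higher among all genes. In 17 of them the populations did not overlap, against 2.95% of all genes. Crip1, a small zinc-binding LIM protein, had 62.4, 316 and 458 CPM in BMDM, against 4.60, 8.13 and 20.6 CPM in microglia (4.85 ± 0.33, edgeR, adjusted p = 5.54e-09). Lsp1, which binds actin in leukocytes, had 201, 1026 and 1280.4 CPM in BMDM, against 18.6, 26.1 and 54.9 CPM in microglia (4.65 ± 0.32, adjusted p = 5.77e-09). In both, even the lowest BMDM library stood about 3 or more times above the highest microglia library. Itga4, the integrin alpha4 chain that monocytes use to cross vessels, had 62.8, 203 and 339 CPM in BMDM, against 4.49, 11.3 and 26.98 CPM in microglia (3.95 ± 0.32, adjusted p = 3.69e-08). Ccr2, the receptor that draws monocytes out of the marrow, had 224, 891 and 1643 CPM in BMDM, against 4.51, 15.6 and 96.2 CPM in microglia (5.36 ± 0.57, adjusted p = 6.18e-07), and the highest microglia library, large_Microglia 3, stood far from the other 9. Ly6c2, which marks young monocytes, was low in both, with 2.18, 4.73 and 37.4 CPM in BMDM, against 0, 0.397 and 1.76 CPM in microglia (4.18 ± 0.75, adjusted p = 0.000271). The ordering held for Ms4a7 (4.14 ± 0.36), S100a6 (5.15 ± 0.45) and Plac8 (4.64 ± 0.42), each without overlap. Lyz2, the lysozyme gene of the myeloid line, showed the smallest difference of the list, with 4570.2 ± 1043 CPM in BMDM and 1861 ± 760.3 CPM in microglia (1.35 ± 0.18, adjusted p = 9.69e-06).

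Transcription factors of recruited and dendritic cells were called in the opposite direction to those of microglia. Of 16 tested, 11 were higher in BMDM and none was lower, with a median log2 fold change of 1.62. Ahr, the aryl hydrocarbon receptor, had 18.997, 92.4 and 147 CPM in BMDM, against 0.642, 1.46 and 3.69 CPM in microglia (5.57 ± 0.39, edgeR, adjusted p = 6.49e-09). Runx3, which dendritic and lymphoid cells use, had 28.9, 90.7 and 146 CPM in BMDM, against 0.304, 2.84 and 11.6 CPM in microglia (4.48 ± 0.50, adjusted p = 1.06e-06). Bhlhe40, a repressor with roles in macrophage proliferation, had 61.6, 381 and 793 CPM in BMDM, against 7.82, 19.6 and 35.4 CPM in microglia (4.18 ± 0.41, adjusted p = 2.23e-07). The libraries of both populations were fully apart in all 3. The dendritic factors followed with smaller differences: Zbtb46, which marks classical dendritic cells, had 57.8 ± 41.3 CPM in BMDM and 8.02 ± 2.33 CPM in microglia (2.78 ± 0.33, adjusted p = 2.45e-06). Batf3, needed for the cross-presenting type, had 34.8 ± 21.2 CPM in BMDM and 12.6 ± 2.20 CPM in microglia (1.38 ± 0.20, adjusted p = 3.15e-05). Id2 (0.32 ± 0.22, adjusted p = 0.292), Cebpb (-0.41 ± 0.52, adjusted p = 0.593), Klf4 (-0.27 ± 0.16, adjusted p = 0.211), Nr4a1 (0.18 ± 0.16, adjusted p = 0.444) and Irf5 (0.08 ± 0.12, adjusted p = 0.653) did not pass.

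The 15 largest differences on the higher side, among genes of 10 CPM or more without overlap, ran from 6.45 to 7.53. Ear2, which encodes a secreted ribonuclease (ENSMUSG00000072596, chromosome 14, 44102654 to 44103534 on GRCm38), led with 8.14, 34.8 and 98.4 CPM in BMDM, against 0, 0.0969 and 0.868 CPM in microglia (7.53 ± 0.62, edgeR, adjusted p = 3.88e-08). Ramp3, a partner chain of receptors for adrenomedullin and calcitonin gene-related peptide (ENSMUSG00000041046, chromosome 11, 6658521 to 6677475), had 7.01, 125 and 257 CPM in BMDM, against 0, 0.602 and 2.84 CPM in microglia (7.14 ± 0.70, adjusted p = 2.21e-07). Every microglia library was below 1 CPM in Ear2 and below 3 CPM in Ramp3. The receptors among them were the chemokine receptor Ccr7 (6.99 ± 0.78), the adenosine receptor Adora2a (6.66 ± 0.73), the serotonin receptor Htr7 (6.45 ± 0.67), the lysophospholipid receptor P2ry10 (6.53 ± 0.62), and the lectins Clec9a (6.95 ± 0.42) and Clec4b1 (6.73 ± 0.49). P2ry10 (ENSMUSG00000050921, chromosome X, 107088492 to 107104974) was the more abundant of the less known ones, with 61.8, 316 and 514 CPM in BMDM, against 0.270, 1.86 and 15.7 CPM in microglia, and no libraries overlapped. The others were the calcium channel subunit Cacnb3 (6.75 ± 0.69), the adhesion molecule Hepacam2 (7.03 ± 0.71), the signalling protein Gcsam of germinal centre cells (7.07 ± 0.76), the ETS factor Spib (6.70 ± 0.74), the interferon-inducible Ifi205 (6.70 ± 0.57), the glycosyltransferase B3gnt5 (6.59 ± 0.69) and Tnfsf4, the ligand of OX40 (6.53 ± 0.67). In Tnfsf4, the level was 12.7 ± 10.1 CPM in BMDM and 0.155 ± 0.236 CPM in microglia (SD, n = 10 each).

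The 15 largest differences on the lower side ran from -3.09 to -4.86. Syt6, a synaptotagmin of vesicle fusion (ENSMUSG00000027849, chromosome 3, 103575231 to 103645569), had 0, 0.178 and 1.63 CPM in BMDM, against 2.36, 10.5 and 28.5 CPM in microglia (-4.86 ± 0.77, edgeR, adjusted p = 7.15e-05). Slc2a5, the fructose transporter (ENSMUSG00000028976, chromosome 4, 150119283 to 150144169), had 0.430, 3.33 and 16.2 CPM in BMDM, against 22.9, 73.4 and 216 CPM in microglia (-4.02 ± 0.52, adjusted p = 6.66e-06). Lag3, best known as a checkpoint receptor of T cells (ENSMUSG00000030124, chromosome 6, 124904361 to 124911705), had 2.14, 5.73 and 9.10 CPM in BMDM, against 18.1, 71.7 and 166 CPM in microglia (-3.71 ± 0.44, adjusted p = 2.25e-06). In all 3 the highest BMDM library lay below the lowest microglia library, by a small step in Syt6 and by about 2-fold in Lag3. Other membrane proteins were the lipid flippase Atp8a2 (-3.33 ± 0.41), the sphingosine 1-phosphate exporter Spns2 (-3.18 ± 0.43), the junction protein Jam2 (-3.23 ± 0.49), the adhesion receptor Adgrg1 (-3.21 ± 0.46) and Unc5cl, a relative of netrin receptors (-3.97 ± 0.70). The catenin Arvcf was lower as well (-3.13 ± 0.53). Atp8a2, a gene known mainly from neurons, had 7.18 ± 4.86 CPM in BMDM and 71.8 ± 29.1 CPM in microglia. The remaining 6 were the endocytic adaptor Epn2 (-3.43 ± 0.60), the lipogenic regulator Thrsp (-3.30 ± 0.48), the synuclein partner Sncaip (-3.26 ± 0.47), the kinase Prkca (-3.11 ± 0.53), the tubulin-binding Tppp (-3.09 ± 0.66) and the Golgi GTPase Rab6b (-3.09 ± 0.48). Thrsp, under thyroid hormone control in liver and fat, had 4.39 ± 4.55 CPM in BMDM and 36.9 ± 9.80 CPM in microglia.

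Adhesion molecules split by subunit. Of 20 integrin subunits tested, 7 were higher and 4 lower in BMDM, with a median log2 fold change of 0.54. Itgae, the chain of the receptor for E-cadherin, had 58.5, 125 and 479 CPM in BMDM, against 1.08, 3.57 and 11.2 CPM in microglia (5.28 ± 0.29, edgeR, adjusted p = 5.91e-10). Itgb7, its partner beta chain and also a partner of alpha4, had 72.4, 233 and 458 CPM in BMDM, against 5.27, 7.46 and 17.6 CPM in microglia (4.63 ± 0.31, adjusted p = 5.54e-09). Both were apart in all libraries, as was Itgal, the alpha chain of LFA-1 (2.51 ± 0.30, adjusted p = 2.70e-06). Itgam, the CD11b chain often used to sort myeloid cells of the brain, was lower, with 106, 186 and 329.8 CPM in BMDM, against 389, 551 and 783 CPM in microglia and no overlap (-1.52 ± 0.18, adjusted p = 2.63e-06), whereas Itgax, its CD11c relative, was higher (1.16 ± 0.19, adjusted p = 8.47e-05). Itgb1 had 534 ± 115 CPM in BMDM and 471 ± 66.6 CPM in microglia (0.18 ± 0.14, adjusted p = 0.346) and Itgav had 83.6 ± 29.1 CPM in BMDM and 105 ± 29.3 CPM in microglia (-0.32 ± 0.20, adjusted p = 0.249), neither called.

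Of 17 chemokine receptors, 6 were higher and 3 lower, and the populations did not overlap in 6 of the 17, against 4.28% of all genes. Cxcr4, the receptor for Cxcl12 that holds cells in niches, had 32.2, 69.7 and 91.3 CPM in BMDM, against 0.911, 8.43 and 18.1 CPM in microglia (3.10 ± 0.33, edgeR, adjusted p = 5.46e-07). Cxcr3, a receptor for interferon-induced chemokines, was lower in level but differed more, with 5.21, 14.8 and 40.97 CPM in BMDM, against 0.0703, 0.501 and 1.19 CPM in microglia (4.86 ± 0.42, adjusted p = 6.84e-08). Xcr1, found on cross-presenting dendritic cells, spread widely among BMDM libraries, with 15.03, 52.8 and 248 CPM in BMDM, against 0.986, 2.79 and 4.31 CPM in microglia (4.58 ± 0.41, adjusted p = 8.39e-08), and its lowest BMDM library still exceeded every microglia library. Ccr6 went the other way, with 12.3, 28.6 and 64.6 CPM in BMDM, against 53.9, 128 and 198 CPM in microglia and an overlap of the groups (-1.93 ± 0.23, adjusted p = 2.43e-06).

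The chemokines themselves were mostly higher in BMDM. Among CC chemokines, 8 of 13 were higher and 2 lower, and among CXC chemokines, 5 of 9 were higher and 1 lower. Ccl22, a chemokine that draws regulatory T cells, had 7.42, 137 and 545 CPM in BMDM, against 0, 2.45 and 4.92 CPM in microglia (5.94 ± 0.64, edgeR, adjusted p = 8.12e-07). Ccl9, a chemokine made by myeloid cells, had 289, 518 and 709.95 CPM in BMDM, against 66.01, 114 and 223 CPM in microglia (1.91 ± 0.23, adjusted p = 3.20e-06). The groups were apart in both, but BMDM libraries spanned a much wider range in Ccl22. Cxcl16, which is made as a membrane-bound chemokine and scavenger, had 421, 807 and 1203 CPM in BMDM, against 296, 356 and 405 CPM in microglia and no overlap (1.25 ± 0.15, adjusted p = 2.24e-06). The neutrophil attractants Cxcl1 (3.45 ± 0.61, adjusted p = 0.000223) and Cxcl2 (2.34 ± 0.54, adjusted p = 0.00231) were higher with overlap. Cxcl13, the B cell attractant, was the 1 CXC member lower in BMDM, and it varied widely, with 0.861, 97.9 and 356 CPM in BMDM, against 42.3, 321 and 1644 CPM in microglia (-2.65 ± 0.75, adjusted p = 0.0105). Ccl2, which recruits monocytes through Ccr2, was not called and had 238 ± 87.5 CPM in BMDM and 294 ± 76.9 CPM in microglia (-0.30 ± 0.23, adjusted p = 0.337).

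Receptors for growth factors and cytokines were called in both directions. Csf1r, the receptor for CSF1 and IL-34, was lower in BMDM, with 1694, 2698 and 5959.7 CPM in BMDM, against 5585, 6778 and 9198 CPM in microglia (-1.20 ± 0.21, edgeR, adjusted p = 0.000187), and the groups overlapped only through large_BMDM 5. Csf1, the ligand itself, was lower by more, with 5.17, 17.2 and 60.7 CPM in BMDM, against 52.4, 140.2 and 213 CPM in microglia (-2.50 ± 0.43, adjusted p = 0.000153), and the groups overlapped. Flt3 and Kit, the receptors of marrow progenitors and, for Flt3, of dendritic cells, were higher: Flt3 had 52.6, 244 and 501 CPM in BMDM, against 0.934, 8.99 and 14.04 CPM in microglia (5.03 ± 0.38, adjusted p = 1.61e-08). Kit had 20.4, 102 and 214 CPM in BMDM, against 0, 1.52 and 6.32 CPM in microglia (5.72 ± 0.59, adjusted p = 4.59e-07). The GM-CSF receptor chains Csf2ra (0.23 ± 0.16, adjusted p = 0.283) and Csf2rb (0.28 ± 0.18, adjusted p = 0.263) were not called. Of 20 interleukin receptors, 6 were higher and 3 lower. Il2ra, the CD25 chain, had 24.7 ± 18.7 CPM in BMDM and 0.387 ± 0.407 CPM in microglia (6.07 ± 0.56, adjusted p = 1.23e-07). Il1r2, the decoy receptor for interleukin 1, had 561 ± 527 CPM in BMDM and 12.5 ± 9.16 CPM in microglia (5.46 ± 0.70, adjusted p = 6.14e-06). Il4ra was not called (-0.20 ± 0.19, adjusted p = 0.459).

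Cytokine ligands gave 6 higher and 2 lower of 22, with a median of -0.03, close to that of all genes, and the 2 lower calls were lost without large_Microglia 4. Il10, the inhibitory cytokine, had 0, 13.2 and 118 CPM in BMDM, against 0.228, 1.36 and 4.08 CPM in microglia (3.86 ± 0.76, edgeR, adjusted p = 0.000599), and 1 BMDM library held none of it. Il1rn, the interleukin 1 receptor antagonist, had 256 ± 166 CPM in BMDM and 79.2 ± 43.5 CPM in microglia (1.70 ± 0.42, adjusted p = 0.00425). Il1b, the inflammatory cytokine, had 2575 ± 668 CPM in BMDM and 1648 ± 595 CPM in microglia (0.64 ± 0.21, adjusted p = 0.0246), and its call was lost without large_BMDM 1, at an adjusted p of 0.0505, without large_BMDM 3, at 0.05001, and without the 3 libraries of over 30000 genes, at 0.0739.

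The TGF-beta pathway, on which microglia depend, gave more lower than higher calls. Of 22 ligands, receptors and Smads, 8 were lower and 3 higher, with a median log2 fold change of -0.24. Tgfbr1, the type I receptor, had 205, 449.8 and 840.4 CPM in BMDM, against 617, 994 and 2103 CPM in microglia (-1.15 ± 0.22, edgeR, adjusted p = 0.000508). Smad7, the inhibitory Smad that the pathway induces, had 12.6, 21.2 and 38.9 CPM in BMDM, against 22.5, 58.03 and 99.4 CPM in microglia (-1.41 ± 0.24, adjusted p = 0.000183). The coreceptor Eng had 7.92, 17.8 and 23.8 CPM in BMDM, against 21.5, 51.7 and 98.4 CPM in microglia (-1.69 ± 0.25, adjusted p = 2.93e-05). The populations overlapped in each of these 3 genes. Among ligands, Tgfb3 was higher in every BMDM library, with 2.59, 22.2 and 72.1 CPM in BMDM, against 0.351, 0.638 and 2.49 CPM in microglia (4.75 ± 0.59, adjusted p = 3.83e-06), and Tgfb1 was not called, with 94.3 ± 39.04 CPM in BMDM and 127 ± 59.3 CPM in microglia (-0.43 ± 0.34, adjusted p = 0.360).

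Among the receptors that sense microbes and damaged cells, C-type lectins were higher in BMDM in 16 of 19 cases, with 1 lower and a median log2 fold change of 3.29. Clec12a, an inhibitory receptor for uric acid crystals, had 55.97, 152 and 372 CPM in BMDM, against 0.607, 3.10 and 7.29 CPM in microglia (5.55 ± 0.44, edgeR, adjusted p = 2.26e-08). Clec10a, a galactose-type lectin, had 25.3, 96.3 and 175 CPM in BMDM, against 0.183, 1.71 and 6.68 CPM in microglia (5.24 ± 0.51, adjusted p = 2.13e-07). Clec4e, also called Mincle, had 24.3, 191 and 552 CPM in BMDM, against 1.98, 7.15 and 22.9 CPM in microglia (4.58 ± 0.55, adjusted p = 2.76e-06). The populations were apart in all 3, by the smallest step in Clec4e. Mgl2, a second galactose-type lectin, was higher by 4.42 ± 0.49 (adjusted p = 1.11e-06).

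Of 12 Toll-like receptors, 2 were higher and 3 lower, against 16.1% called higher and 13.8% called lower among all genes. Leaving out large_BMDM 5 raised the lower calls to 5. Tlr11, for profilin of parasites in the mouse, had 14.7 ± 11.4 CPM in BMDM and 0.298 ± 0.582 CPM in microglia (5.99 ± 0.74, edgeR, adjusted p = 4.21e-06). Tlr8 had 17.5, 52.4 and 82.7 CPM in BMDM, against 0, 3.99 and 17.5 CPM in microglia (3.52 ± 0.46, adjusted p = 7.45e-06). Tlr4, the receptor for bacterial lipopolysaccharide, was lower, with 65.8 ± 18.9 CPM in BMDM and 106 ± 19.3 CPM in microglia (-0.69 ± 0.16, adjusted p = 0.00219), as were Tlr3 (-0.87 ± 0.26, adjusted p = 0.0145) and Tlr7 (-0.89 ± 0.27, adjusted p = 0.0155), the sensors of RNA. Tlr2, for lipoproteins, did not pass, with 1167 ± 448 CPM in BMDM and 1263 ± 307 CPM in microglia (-0.12 ± 0.23, adjusted p = 0.746). In the inflammasome list, 4 of 13 were higher and 1 lower, and 2 of 13 stayed called higher without the 3 libraries of over 30000 genes. Nlrc4 had 23.1 ± 15.6 CPM in BMDM and 0.598 ± 0.431 CPM in microglia (5.29 ± 0.64, adjusted p = 2.95e-06) and Mefv, which encodes pyrin, had 83.4 ± 52.96 CPM in BMDM and 4.56 ± 2.81 CPM in microglia (4.18 ± 0.58, adjusted p = 1.52e-05), while Naip5, the sensor that works with Nlrc4, was lower (-0.67 ± 0.15, adjusted p = 0.00249).

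Of 9 Fc receptor genes, 3 were higher and 1 lower, led by the inhibitory Fcgr2b, with 338, 435 and 683 CPM in BMDM, against 114, 194 and 496 CPM in microglia (1.07 ± 0.18, edgeR, adjusted p = 0.000162). Fcgr1 (-0.35 ± 0.35, adjusted p = 0.484) and Fcgr4 (-0.08 ± 0.31, adjusted p = 0.883) were not called. Of 8 Siglec lectins, 1 was higher and 4 were lower. Siglecg, the member shared with B cells, had 11.4, 45.8 and 74.2 CPM in BMDM, against 1.43, 3.79 and 5.54 CPM in microglia (3.76 ± 0.29, adjusted p = 1.85e-08), and Siglecf was lower, with 0, 13.2 and 49.98 CPM in BMDM, against 29.4, 78.04 and 137 CPM in microglia (-2.12 ± 0.52, adjusted p = 0.00395). The groups were apart in Siglecg and overlapped in Siglecf.

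Genes for clearing debris were called in both directions. Of 15 scavenger receptors and genes of border macrophages, which live in the meninges and around vessels, 9 were higher in BMDM and none was lower, with a median of 2.36. Cd163, the haemoglobin scavenger, had 12.5, 23.6 and 209 CPM in BMDM, against 0.0917, 0.548 and 1.23 CPM in microglia (6.26 ± 0.57, edgeR, adjusted p = 1.05e-07). Lyve1, the hyaluronan receptor of border macrophages, had 0, 17.9 and 264 CPM in BMDM, against 0, 0.190 and 1.52 CPM in microglia (6.56 ± 0.99, adjusted p = 4.26e-05), with at least 1 BMDM library at 0 and 1 at a level far above its population's median. Pf4, a chemokine of platelets and border macrophages, had 33.8, 72.97 and 367 CPM in BMDM, against 1.33, 6.08 and 51.5 CPM in microglia (3.87 ± 0.60, adjusted p = 5.98e-05). These 3 genes varied more among BMDM than among microglia. Cd36, the fatty acid and oxidised lipid receptor, was higher (2.70 ± 0.36, adjusted p = 9.22e-06), whereas Msr1 (0.48 ± 0.35, adjusted p = 0.322) and Stab1 (0.31 ± 0.32, adjusted p = 0.503) did not pass.

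Of 12 genes for the uptake of apoptotic cells, 2 were higher and 4 lower. Mertk, the receptor that recognises dying cells through bridging proteins, had 39.1, 181 and 447 CPM in BMDM, against 491, 631 and 813 CPM in microglia (-1.70 ± 0.28, edgeR, adjusted p = 0.000116). Pros1, 1 of those bridging proteins, had 152, 239 and 442 CPM in BMDM, against 561, 766 and 1159 CPM in microglia (-1.56 ± 0.19, adjusted p = 2.69e-06). Receptor and ligand were both lower in every BMDM library than in any microglia library. Axl, a second receptor of the family, was not called, with 697 ± 236 CPM in BMDM and 831 ± 207 CPM in microglia (-0.25 ± 0.21, adjusted p = 0.391). Timd4, which binds phosphatidylserine, was higher, with 5.65, 149 and 346 CPM in BMDM, against 0, 1.98 and 7.47 CPM in microglia (6.62 ± 0.69, adjusted p = 5.25e-07), and its lowest BMDM library lay within the range of microglia.

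Of 17 complement genes, 7 were lower, 2 higher and 8 not called, with a median of -0.45. The C1q chains C1qa (-0.80 ± 0.19, edgeR, adjusted p = 0.00317) and C1qc (-0.81 ± 0.19, adjusted p = 0.00307), which start the classical pathway, were lower, and C1qa had 816, 1327 and 2502 CPM in BMDM, against 2079, 2588 and 2751 CPM in microglia. The range of BMDM reached into that of microglia. Cfp, which encodes properdin and stabilises the alternative pathway, was higher in every BMDM library, with 124, 297 and 667 CPM in BMDM, against 3.72, 17.2 and 69.97 CPM in microglia (3.78 ± 0.47, adjusted p = 3.80e-06). C3 (-0.06 ± 0.26, adjusted p = 0.894) and its receptor C3ar1 (-0.37 ± 0.22, adjusted p = 0.221) were not called.

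The genes that microglia switch on in disease were split between the populations. Of 22 disease-associated microglia genes, 4 were higher in BMDM, 7 lower and 11 not called, with a median of -0.28. Among all genes 16.1% were called higher and 13.8% lower. Apoe, the lipid carrier at the head of this programme, had 5359.9, 11071 and 14774 CPM in BMDM, against 5372, 9626 and 12935 CPM in microglia (0.14 ± 0.16, edgeR, adjusted p = 0.546). Spp1, osteopontin, had 188, 3527 and 6146 CPM in BMDM, against 611, 4168 and 8743 CPM in microglia (-0.34 ± 0.44, adjusted p = 0.602). The ranges of both populations lay largely on top of each other in these 2 genes. Lgals3, galectin-3, was higher in every BMDM library, with 318, 355 and 592 CPM in BMDM, against 19.3, 99.1 and 261 CPM in microglia (1.89 ± 0.28, adjusted p = 3.35e-05), and Clec7a, the beta-glucan receptor dectin-1, was higher with overlap (1.10 ± 0.18, adjusted p = 0.000123). Cd9, a tetraspanin, was lower in every BMDM library, with 197, 361 and 418 CPM in BMDM, against 431, 635 and 868 CPM in microglia (-0.93 ± 0.15, adjusted p = 7.21e-05). Trem2, the lipid sensor of this programme, was lower (-0.85 ± 0.25, adjusted p = 0.0147). Its adaptor Tyrobp was not called, with 1180.5 ± 175 CPM in BMDM and 1079.7 ± 118 CPM in microglia (0.13 ± 0.10, adjusted p = 0.373), and neither was the lysosomal marker Cd68, with 1083 ± 296 CPM in BMDM and 1057 ± 198 CPM in microglia (0.04 ± 0.14, adjusted p = 0.867).

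Lysosomal genes were lower or not called: 12 of 24 were lower and none was higher, with a median of -0.40. Without small_BMDM 2 the list gave 2 higher and 11 lower. Ctsf, a cysteine protease, had 23.998, 73.7 and 272 CPM in BMDM, against 276, 325 and 472 CPM in microglia (-1.80 ± 0.33, edgeR, adjusted p = 0.000296). Ctsl had 1089 ± 559.7 CPM in BMDM and 2247 ± 385 CPM in microglia (-1.08 ± 0.24, adjusted p = 0.00178). The groups were apart in Ctsf. Ctsb (-0.24 ± 0.15, adjusted p = 0.224) and Psap, the saposin precursor (0.14 ± 0.13, adjusted p = 0.449), were not called. Of 22 lipid handling genes, 7 were higher and 2 lower, and without large_BMDM 5 the lower calls became 6. Nr1h3, the oxysterol receptor LXR alpha, was higher (2.62 ± 0.38, adjusted p = 2.56e-05), and Lrp1, an endocytic lipoprotein receptor, was lower (-1.25 ± 0.27, adjusted p = 0.00122).

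Genes of antigen presentation through MHC class II were higher in BMDM. Of 12 genes tested, 11 were higher in BMDM and 1 was lower, with a median log2 fold change of 3.34. The populations did not overlap in 7 of the 12, against 4.28% of all genes. Class II genes share an upstream control region, the W, X and Y boxes, that the coactivator encoded by Ciita reads. The mouse promoters of the 6 tested class II members that hold the core of the Y box, TGATTGG, are shown because these genes were higher together and share it. The entries of H2-DMa (2 starts), Ctss and Ifi30 hold no match, and H2-Eb2 holds one but was not among the genes tested. Each line gives the 90 bases from 120 to 31 upstream of the RefSeq start on GRCm38.p6. Capitals mark TGATTGG and, where present, TGATGATG or TGACGTCA, stretches upstream of it whose place within the X box was not assigned.
H2-Aa (chr17:34287854-34287943, - strand): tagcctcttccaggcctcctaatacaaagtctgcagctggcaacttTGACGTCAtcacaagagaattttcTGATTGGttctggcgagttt
H2-Eb1 (chr17:34305747-34305836, + strand): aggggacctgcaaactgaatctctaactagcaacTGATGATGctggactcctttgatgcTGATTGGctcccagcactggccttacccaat
H2-DMb1 (chr17:34153071-34153160, + strand): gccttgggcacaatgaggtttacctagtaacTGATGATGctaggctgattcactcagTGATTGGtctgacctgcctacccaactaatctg
H2-DMb2 (chr17:34145129-34145218, + strand): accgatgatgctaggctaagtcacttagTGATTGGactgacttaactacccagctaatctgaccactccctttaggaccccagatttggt
H2-Oa (chr17:34092259-34092348, + strand): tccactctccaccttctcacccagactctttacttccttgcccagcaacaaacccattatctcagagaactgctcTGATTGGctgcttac
H2-Ob (chr17:34238785-34238874, + strand): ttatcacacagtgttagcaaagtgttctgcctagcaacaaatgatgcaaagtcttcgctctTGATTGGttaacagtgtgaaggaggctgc
In H2-Aa, TGACGTCA began 24 bases before TGATTGG, and in H2-Eb1 and H2-DMb1, TGATGATG began 25 and 26 bases before it. In H2-DMb2, H2-Oa and H2-Ob the window held TGATTGG and no exact match of TGATGATG or TGACGTCA, and near forms of these were not searched. Of 13 list members, 10 had a promoter entry that could be used, and 7 of these held TGATTGG, searched on both strands with overlaps counted over the 250 bases before the start. Over all 32851 promoters of the table, 2375 held TGATTGG (7.23%), 407 held TGATGATG (1.24%) and 508 held TGACGTCA (1.55%). The letters are those of the reference build, and the sequence in these Balb/C mice was not examined. A match describes the letters and is not a site or a cause.

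Ciita itself had 65.6, 189 and 325 CPM in BMDM, against 0.180, 3.29 and 16.6 CPM in microglia and was apart in all libraries (5.08 ± 0.58, edgeR, adjusted p = 1.39e-06). Cd74, the invariant chain that guides class II through the cell, had 1724, 5663 and 7228 CPM in BMDM, against 77.5, 236 and 543 CPM in microglia (4.24 ± 0.37, adjusted p = 8.01e-08). The beta chain H2-Eb1 had 708, 1685 and 2060.1 CPM in BMDM, against 13.7, 30.97 and 163 CPM in microglia (4.996 ± 0.46, adjusted p = 1.23e-07). The alpha chain H2-Aa had 45.6, 123 and 311 CPM in BMDM, against 2.75, 7.31 and 12.9998 CPM in microglia (4.27 ± 0.40, adjusted p = 1.48e-07). None of these 4 genes overlapped, and the lowest BMDM library exceeded the highest microglia library by at least 3-fold in each. H2-Ab1, the beta partner of H2-Aa, spread more widely, with 26.96, 81.1 and 553 CPM in BMDM, against 3.13, 9.85 and 19.8 CPM in microglia (3.93 ± 0.48, adjusted p = 3.22e-06). H2-Aa and H2-Ab1 belong to a family of closely similar genes, and how reads shared between such genes were counted is not given in the sources used here. How well reads of these Balb/C mice align to the GRCm38 build in such genes was not tested. Levels of different class II genes may therefore not be comparable.

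The chaperones that load peptide onto class II followed. H2-DMb2 had 37.8, 115 and 191 CPM in BMDM, against 8.74, 17.3 and 28.6 CPM in microglia (2.72 ± 0.25, edgeR, adjusted p = 1.23e-07), and H2-DMa had 478 ± 128 CPM in BMDM and 191 ± 45.6 CPM in microglia (1.32 ± 0.15, adjusted p = 1.89e-06). H2-DMb1 had 41.4 ± 50.8 CPM in BMDM and 5.35 ± 8.96 CPM in microglia (3.40 ± 0.70, adjusted p = 0.000975). The inhibitory pair of the DM chaperone was higher too: H2-Oa had 29.01, 62.3 and 93.4 CPM in BMDM, against 3.47, 6.26 and 13.4 CPM in microglia (3.28 ± 0.24, adjusted p = 1.36e-08). H2-Ob had 79.8 ± 35.9 CPM in BMDM and 26.7 ± 20.3 CPM in microglia with overlap (1.61 ± 0.37, adjusted p = 0.00257). H2-Oa was apart in all libraries. The endosomal enzymes went 2 ways: Ifi30, a thiol reductase, was higher (1.25 ± 0.35, adjusted p = 0.0110), at an adjusted p of 0.0646 without the 3 libraries of over 30000 genes, and the protease Ctss was lower (-0.38 ± 0.14, adjusted p = 0.0443), a call that was kept without large_BMDM 5, small_BMDM 2 or small_BMDM 4 and lost without any 1 of the other 17 libraries, at an adjusted p of at most 0.102.

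Of 19 class I genes, 10 were higher and 2 lower, with a median of 0.65. The immunoproteasome subunits led: Psmb8 had 195, 294 and 470.2 CPM in BMDM, against 91.4, 139 and 161 CPM in microglia (1.22 ± 0.14, edgeR, adjusted p = 1.35e-06). Psmb9 had 42.7, 84.9 and 149 CPM in BMDM, against 20.6, 31.5 and 42.01 CPM in microglia (1.40 ± 0.17, adjusted p = 4.35e-06), both apart by a narrow step. The peptide transporter Tap1 was higher (0.99 ± 0.14, adjusted p = 2.31e-05), while B2m, the common light chain, was not called, with 2238 ± 453 CPM in BMDM and 1995 ± 442 CPM in microglia (0.17 ± 0.14, adjusted p = 0.414). H2-K1 was not called either and varied widely within both populations, with 111 ± 171 CPM in BMDM and 88.9 ± 128 CPM in microglia (0.16 ± 0.59, adjusted p = 0.867). How well its reads align to the reference build in these Balb/C mice was not tested.

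Costimulatory and checkpoint genes were split, with 7 of 18 higher and 6 lower. Pdcd1lg2, the second ligand of PD-1, had 2.25, 16.2 and 32.9 CPM in BMDM, against 0.0917, 0.422 and 0.984 CPM in microglia (5.25 ± 0.48, edgeR, adjusted p = 1.16e-07). Cd40 had 9.67, 99.01 and 157 CPM in BMDM, against 2.47, 11.2 and 26.04 CPM in microglia (2.98 ± 0.42, adjusted p = 1.94e-05). The populations were apart in Pdcd1lg2 and overlapped in Cd40. Pvr, a ligand shared by activating and inhibitory receptors, was higher (1.80 ± 0.25, adjusted p = 1.96e-05). Sirpa, the receptor for the CD47 signal against uptake, was lower, with 327, 519.6 and 849.7 CPM in BMDM, against 761, 1054 and 1473 CPM in microglia (-1.08 ± 0.17, adjusted p = 8.36e-05), and the groups overlapped in a few libraries.

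Genes of dendritic cells were higher in BMDM as well. Of 16 genes of conventional dendritic cells, 14 were higher in BMDM and 2 lower, with a median of 4.80. The populations were apart in 11 of the 16, against 4.28% of all genes. Cd24a, a surface glycoprotein, had 44.97, 122 and 361 CPM in BMDM, against 0.270, 1.43 and 4.77 CPM in microglia (6.23 ± 0.50, edgeR, adjusted p = 3.32e-08). Kmo, an enzyme of tryptophan breakdown, had 47.2, 182 and 293 CPM in BMDM, against 0.550, 3.39 and 13.1 CPM in microglia (5.50 ± 0.49, adjusted p = 9.03e-08). Of 17 genes of mature migratory dendritic cells, 12 were higher and 1 lower, with a median of 2.57. Ccr7, which leads such cells to lymph vessels, had 101, 1161 and 1724 CPM in BMDM, against 0.165, 7.68 and 17.4 CPM in microglia (6.99 ± 0.78, adjusted p = 1.16e-06), a range of more than 10-fold among BMDM that stayed above all microglia. Tmem123 was higher by 2.57 ± 0.26 (adjusted p = 2.63e-07) and Nudt17 by 5.51 ± 0.58 (adjusted p = 5.46e-07). Fscn1, an actin bundler (-0.54 ± 0.38, adjusted p = 0.307), Marcksl1 (-0.36 ± 0.24, adjusted p = 0.283) and Cd83 (0.03 ± 0.27, adjusted p = 0.945), which also belong to this state, were not called. Summed over all their genes, the conventional list reached 1771, 2498 and 5283 CPM in BMDM, against 1303, 1563 and 2024 CPM in microglia, and the migratory list 2656, 7323 and 9605 CPM in BMDM, against 2250.5, 4591 and 6458 CPM in microglia. These sums overlapped between populations although most single genes were higher. Cd83, which was not called, made up much of the migratory sum. At the highest sums it held 4542 of 6458 CPM in large_Microglia 1 and 4629 of 9605 CPM in large_BMDM 1. At the lowest sums it held 1237 of 2250.5 CPM in large_Microglia 5 and 1380 of 2656 CPM in large_BMDM 5. The overlap of the migratory sums therefore does not describe the other members. The share of dendritic cells in the sort was not tested.

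**Figure D3:**
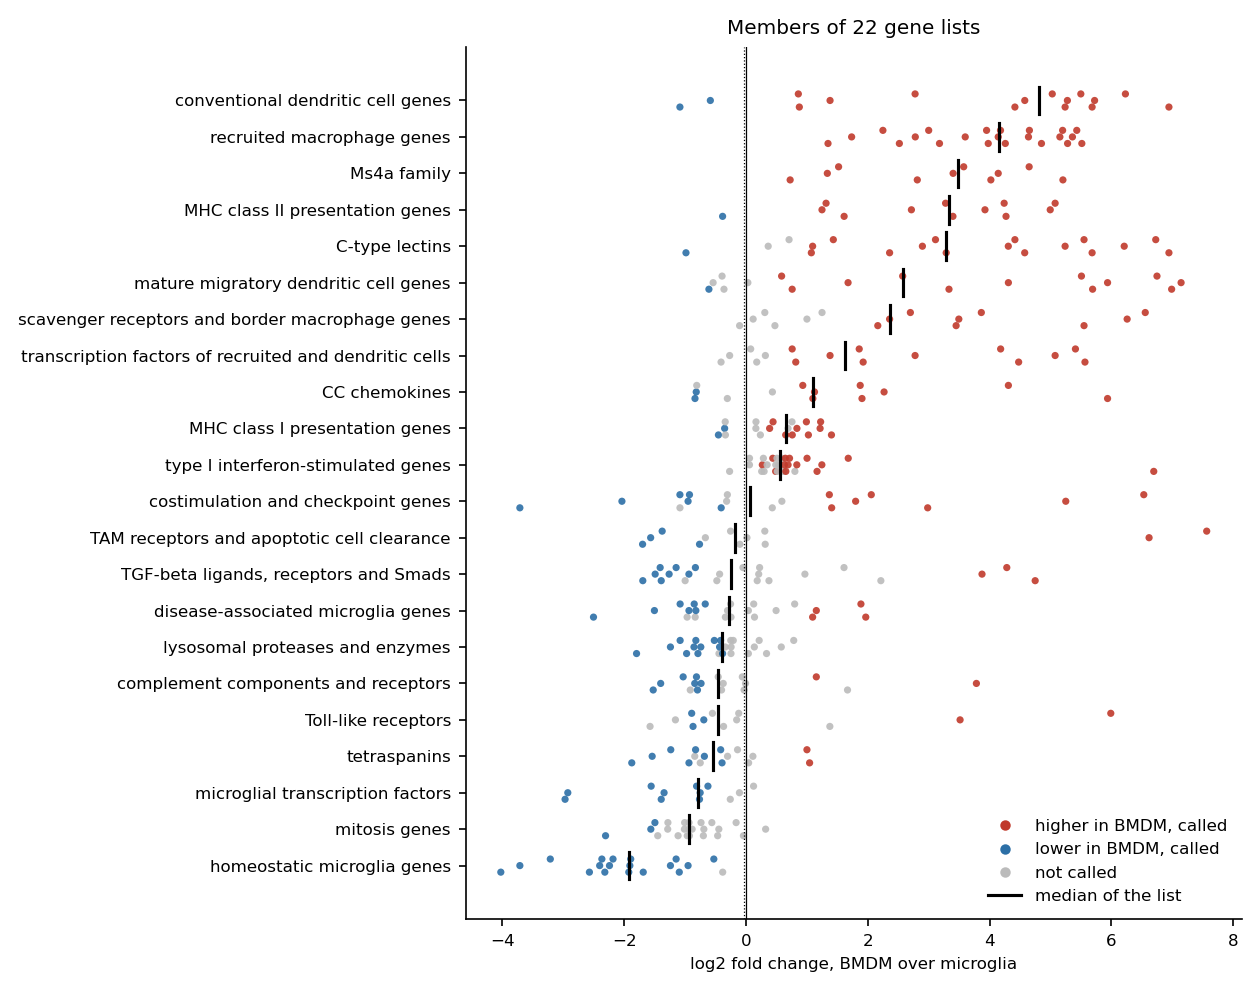
Log2 fold changes of BMDM over microglia for the tested members of 22 gene lists, 1 point per gene, coloured by call, with the median of each list as a bar and the median of all genes as a dotted line. Dendritic cell, recruited macrophage, Ms4a and class II genes lie to the right, homeostatic microglia genes lie to the left, and disease-associated, TAM receptor and checkpoint genes lie on both sides.

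Families of membrane proteins also differed. All 10 tested genes of the Ms4a family were higher, with a median of 3.49. Ms4a4c had 158, 364 and 576 CPM in BMDM, against 19.5, 53.1 and 84.8 CPM in microglia (2.81 ± 0.29, edgeR, adjusted p = 3.66e-07). Ms4a4a had 285, 422 and 689.8 CPM in BMDM, against 1.37, 21.9 and 209 CPM in microglia (3.58 ± 0.48, adjusted p = 1.18e-05). Both were apart in all libraries. Of 16 tetraspanins, 8 were lower and 2 higher. Cd81, which organises membrane domains, had 187, 464 and 1591 CPM in BMDM, against 1655, 2042 and 2425 CPM in microglia and did not overlap (-1.87 ± 0.30, adjusted p = 7.48e-05). Of 10 adhesion receptors of the G protein-coupled class, 4 were higher and 2 lower: Adgre5, the CD97 receptor, had 40.4, 191 and 224 CPM in BMDM, against 4.49, 7.23 and 16.6 CPM in microglia (4.39 ± 0.29, adjusted p = 4.83e-09). Adgre4 had 7.35, 76.1 and 310.4 CPM in BMDM, against 1.10, 1.74 and 6.18 CPM in microglia (5.53 ± 0.49, adjusted p = 8.21e-08).

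Purinergic genes were called in both directions. Of 18 purinergic receptors and nucleotide-degrading enzymes, 7 were higher and 8 lower. P2ry14, the receptor for UDP-glucose, had 26.6, 49.1 and 117 CPM in BMDM, against 1.92, 7.61 and 13.9 CPM in microglia (2.80 ± 0.31, edgeR, adjusted p = 9.27e-07). The adenosine receptor Adora2b had 25.6 ± 18.6 CPM in BMDM and 1.34 ± 0.900 CPM in microglia (4.26 ± 0.53, adjusted p = 4.18e-06). Adora3, by contrast, was lower, with 2.84, 6.49 and 17.1 CPM in BMDM, against 15.99, 36.3 and 54.4 CPM in microglia (-2.27 ± 0.32, adjusted p = 1.78e-05). P2ry14 was apart in all libraries. Ada, adenosine deaminase, was not called (0.04 ± 0.32, adjusted p = 0.939). Of 17 ion channel genes, 5 were higher and 6 lower, with the calcium-activated potassium channel Kcnn4 higher (3.43 ± 0.32, adjusted p = 1.23e-07). Of 16 semaphorins, plexins and neuropilins, 5 were higher and 3 lower, led by Sema4a (2.37 ± 0.22, adjusted p = 1.48e-07) and Plxnc1 (3.53 ± 0.43, adjusted p = 3.80e-06), and without small_BMDM 3 the lower calls became 5.

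Among response programmes, the NF-kB genes gave 8 of 18 higher and 4 lower, and 4 higher and 3 lower without the 3 libraries of over 30000 genes. Traf1, an adaptor of TNF receptors, had 33.98, 349 and 567 CPM in BMDM, against 3.26, 7.38 and 25.9 CPM in microglia (4.996 ± 0.44, edgeR, adjusted p = 8.21e-08), and Icam1, the ligand of LFA-1, was lower, with 148, 314 and 523 CPM in BMDM, against 487, 885 and 1231 CPM in microglia (-1.51 ± 0.25, adjusted p = 0.000125). Nfkb1 (0.17 ± 0.15, adjusted p = 0.403) and its inhibitor Nfkbia (0.02 ± 0.22, adjusted p = 0.950) were not called. Of 28 interferon-stimulated genes, 14 were higher and none lower, with a median of 0.57. That count became 9 when any 1 of 7 libraries was left out: large_BMDM 2, small_BMDM 4, small_BMDM 5, small_Microglia 2, large_Microglia 2, large_Microglia 3 or large_Microglia 4. Irf7, the factor that amplifies the response, had 479.6 ± 191 CPM in BMDM and 237 ± 102 CPM in microglia (1.004 ± 0.23, adjusted p = 0.00207). Oas3 had 39.9 ± 18.5 CPM in BMDM and 13.5 ± 11.02 CPM in microglia (1.68 ± 0.34, adjusted p = 0.000795). Ifit3 was not called (0.06 ± 0.20, adjusted p = 0.857).

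Genes of arginine metabolism and alternative activation were higher in 9 of 17 cases and lower in 3, with a median of 1.36, and the lower calls became 1 when large_BMDM 2, small_BMDM 1, small_BMDM 5 or small_Microglia 2 was left out. Arg1, arginase 1, had 1.38, 27.5 and 109 CPM in BMDM, against 0.683, 2.66 and 15.3 CPM in microglia (2.996 ± 0.79, edgeR, adjusted p = 0.00677). Arg2, the mitochondrial form, had 4.99, 115 and 328 CPM in BMDM, against 1.21, 19.8 and 37.2 CPM in microglia (2.83 ± 0.55, adjusted p = 0.000539). The populations overlapped in both, and BMDM varied over more than 10-fold. The call of Arg1 was lost with limma voom (adjusted p = 0.0527), at the small stage alone (0.0510) and at the large stage alone (0.123). Mrc1, the mannose receptor, was higher, with 204, 388 and 928 CPM in BMDM, against 5.61, 71.2 and 258 CPM in microglia (2.36 ± 0.48, adjusted p = 0.000835). Of 22 eicosanoid genes, 8 were higher and 6 lower. Ptgs1, the constitutive cyclooxygenase, was lower in every BMDM library, with 62.1, 180.3 and 502 CPM in BMDM, against 528, 692 and 937 CPM in microglia (-1.79 ± 0.29, adjusted p = 8.58e-05), as was Hpgds, the prostaglandin D synthase (-1.10 ± 0.16, adjusted p = 2.67e-05). Ltb4r1, the leukotriene B4 receptor, was higher, with 4.22, 30.3 and 44.9 CPM in BMDM, against 0.152, 0.789 and 2.28 CPM in microglia (4.89 ± 0.45, adjusted p = 1.16e-07).

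Energy and redox genes were called in both directions, at shares on either side of the 29.9% of all genes. Of 25 glycolysis and hypoxia genes, 2 were higher and 4 lower, and without large_Microglia 3 the balance turned to 4 higher and 3 lower. Pfkp, the platelet form of phosphofructokinase, had 19.9, 163 and 271 CPM in BMDM, against 3.41, 8.75 and 23.2 CPM in microglia (4.12 ± 0.43, edgeR, adjusted p = 4.70e-07), while Hk2, hexokinase 2, was lower (-1.31 ± 0.24, adjusted p = 0.000277), with 74.1 ± 43.7 CPM in BMDM and 183 ± 29.8 CPM in microglia. Gapdh (-0.22 ± 0.22, adjusted p = 0.486) and Pkm (0.03 ± 0.19, adjusted p = 0.919) were not called. Of 21 genes of the NADPH oxidase and antioxidant defence, 6 were higher and 2 lower. Cybb, the oxidase's catalytic subunit, was higher in every BMDM library, with 425, 1141 and 1527 CPM in BMDM, against 61.5, 212 and 373 CPM in microglia (2.28 ± 0.28, adjusted p = 3.39e-06). Of 16 iron and haem genes, 2 were higher and 2 lower, and Hmox1, haem oxygenase 1, was not called (-0.34 ± 0.46, adjusted p = 0.624).

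In the matrix lists, 8 of 18 metalloproteinases and inhibitors were higher and 4 lower, as were 4 and 3 of 15 extracellular matrix proteins. Mmp2, a gelatinase, was lower in every BMDM library, with 3.27, 10.8 and 33.1 CPM in BMDM, against 35.7, 49.3 and 68.4 CPM in microglia (-2.12 ± 0.32, edgeR, adjusted p = 4.83e-05), and Timp1, an inhibitor of such enzymes, was higher, with 2.72, 6.91 and 27.3 CPM in BMDM, against 0, 0.0897 and 0.976 CPM in microglia (5.16 ± 0.71, adjusted p = 1.50e-05). Tgfbi, a matrix protein that TGF-beta induces, had 293, 1252 and 2428 CPM in BMDM, against 24.1, 83.3 and 139 CPM in microglia (3.98 ± 0.38, adjusted p = 1.64e-07). Sparc, an antiadhesive protein of microglia, had 100.3, 337 and 1378 CPM in BMDM, against 1501, 2531 and 3261 CPM in microglia (-2.36 ± 0.40, adjusted p = 0.000123). Each of the 4 genes was apart in all libraries. Of 17 coagulation genes, 9 were higher and 4 lower. Thbd, thrombomodulin, had 12.1, 42.4 and 63.5 CPM in BMDM, against 0.204, 0.623 and 4.66 CPM in microglia (5.39 ± 0.48, adjusted p = 8.21e-08), and F10, coagulation factor X, had 8.37, 30.5 and 78.4 CPM in BMDM, against 0, 0.202 and 4.25 CPM in microglia (5.43 ± 0.77, adjusted p = 2.11e-05). F13a1, the clot-linking transglutaminase, had 221, 339.5 and 1147 CPM in BMDM, against 1.26, 35.1 and 274 CPM in microglia (3.50 ± 0.63, adjusted p = 0.000279).

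Of 19 growth factors for vessels and tissue, 7 were higher and 7 lower, and the counts were 5 and 4 without large_Microglia 4 and 6 and 4 without small_BMDM 5. Vegfa, which drives vessel growth, had 7.76, 154 and 363 CPM in BMDM, against 6.59, 24.6 and 40.9 CPM in microglia (2.76 ± 0.47, edgeR, adjusted p = 0.000134). Nrg1, a ligand of ErbB receptors, had 32.1 ± 26.4 CPM in BMDM and 0.703 ± 0.900 CPM in microglia (5.72 ± 0.68, adjusted p = 2.51e-06). Hgf, hepatocyte growth factor, had 28.1 ± 13.8 CPM in BMDM and 8.89 ± 3.9997 CPM in microglia (1.65 ± 0.31, adjusted p = 0.000424). On the lower side, Pdgfb, the ligand for pericytes, had 14.6 ± 9.55 CPM in BMDM and 42.2 ± 9.38 CPM in microglia (-1.53 ± 0.32, adjusted p = 0.00107). Tgfa, a ligand of the EGF receptor, had 37.9 ± 52.9 CPM in BMDM and 159 ± 38.5 CPM in microglia (-2.21 ± 0.47, adjusted p = 0.00134). Igf1 was not called, with 84.8 ± 87.3 CPM in BMDM and 51.2 ± 52.6 CPM in microglia (0.80 ± 0.58, adjusted p = 0.317).

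Few proliferation genes were called. Of 23 mitosis genes, 3 were lower and none higher, against 13.8% called lower among all genes, with a median of -0.93. Without small_BMDM 2 the lower calls became 11, while they were 5 without large_BMDM 5 or without large_Microglia 2. Prc1, a protein of the dividing spindle, had 5.01 ± 3.36 CPM in BMDM and 14.4 ± 5.88 CPM in microglia (-1.49 ± 0.34, edgeR, adjusted p = 0.00224). Mki67, the common proliferation marker, was not called, with 5.97, 24.97 and 59.6 CPM in BMDM, against 6.75, 32.3 and 68.5 CPM in microglia (-0.44 ± 0.38, adjusted p = 0.406), and its ranges lay on top of each other. Of 25 replication genes, 3 were lower and none higher, with Gins1, a subunit of the replicative helicase, lower (-0.80 ± 0.23, adjusted p = 0.0105), with 1 lower call left without small_Microglia 5, and without large_Microglia 3 the list gave 1 higher and 1 lower. Of 20 immediate early genes, which tissue digestion can induce, 2 were higher and 6 lower. Jun had 354, 693 and 1042 CPM in BMDM, against 894, 1599.8 and 3533 CPM in microglia (-1.39 ± 0.25, adjusted p = 0.000278), and Nr4a2 was higher, with 42.5, 243 and 358 CPM in BMDM, against 4.80, 16.2 and 80.2 CPM in microglia (3.15 ± 0.47, adjusted p = 3.85e-05). Fos was not called, with 2711 ± 1229.6 CPM in BMDM and 3826 ± 1216 CPM in microglia (-0.50 ± 0.25, adjusted p = 0.146). S100 proteins were higher in 6 of 10 cases with none lower, for example S100a11 (5.23 ± 0.47, adjusted p = 9.03e-08) and S100a10 (3.64 ± 0.33, adjusted p = 1.03e-07).

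Markers of other cells also differed between the sorts. The summed level of 10 epithelial markers was 36.5, 73.95 and 111 CPM in BMDM (lowest, median and highest library), against 1.10, 4.17 and 14.04 CPM in microglia. Epcam, an adhesion protein of epithelia that some dendritic cells also carry, had 13.2, 49.3 and 89.4 CPM in BMDM, against 0, 1.10 and 4.99 CPM in microglia (4.94 ± 0.50, edgeR, adjusted p = 3.19e-07). It made up 61.2% of this sum in BMDM and 26.5% in microglia. The other 9 members summed to 12.05, 24.5 and 53.6 CPM in BMDM, against 1.06, 3.02 and 12.75 CPM in microglia, with overlap. The 11 markers of NK and innate lymphoid cells summed to 36.7, 277 and 712 CPM in BMDM, against 12.3, 32.1 and 74.2 CPM in microglia. Klrk1 had 21.4, 170.0 and 385 CPM in BMDM, against 0.720, 3.07 and 8.63 CPM in microglia (5.66 ± 0.46, adjusted p = 3.69e-08). It made up 55.9% of this sum in BMDM and 10.3% in microglia. The other 10 members summed to 15.3, 123 and 327 CPM in BMDM, against 10.7, 26.5 and 72.0 CPM in microglia, with overlap. Of the 9 tested, 5 were higher. That count was 2 without large_BMDM 2, 8 without large_BMDM 5, and 3 without large_Microglia 2, 4 or 5. B cell markers gave 3 of 4 higher, and the populations overlapped in all 4. At the small stage alone 0 of these 4 were called, and at the large stage alone 3 were called higher. The 9 listed B and plasma cell markers summed to 3.10, 29.9 and 183 CPM in BMDM, with the highest sum in large_BMDM 2. In microglia these markers summed to 5.67, 14.03 and 33.99 CPM. T cell markers gave 1 of 3 higher, Cd4, which macrophages can also carry. Cd4 had 14.5 ± 13.2 CPM in BMDM and 0.576 ± 0.480 CPM in microglia. The 8 mast cell and basophil markers summed to 21.3, 114 and 216 CPM in BMDM, against 0.440, 6.58 and 14.6 CPM in microglia, and Tpsb2 was at 0 in every library. Kit made up 91.4% of this sum in BMDM and 29.7% in microglia, and the other 7 members summed to 0.953, 6.61 and 23.7 CPM in BMDM, against 0.440, 4.34 and 11.3 CPM in microglia. Of the 2 members tested, Kit was called. The 12 neutrophil markers summed to 213, 380.4 and 571 CPM in BMDM, against 688, 954 and 1464 CPM in microglia. Csf3r, the G-CSF receptor, was lower, with 353 ± 141 CPM in BMDM and 984 ± 208 CPM in microglia (-1.48 ± 0.22, adjusted p = 2.94e-05), and made up 88.9% of this sum in BMDM and 97.7% in microglia. The other 11 members summed to 9.33, 31.5 and 98.04 CPM in BMDM, against 2.95, 17.98 and 78.1 CPM in microglia, and of the 8 members tested 2 were higher, 1 lower and 5 not called. The 10 astrocyte markers summed to 46.4, 75.9 and 188 CPM in BMDM, against 147, 212 and 452 CPM in microglia. Slc1a3, the glutamate transporter of astrocytes, had 0.838, 25.2 and 79.7 CPM in BMDM, against 124, 174 and 275 CPM in microglia (-2.77 ± 0.49, adjusted p = 0.000199), and the other 9 members summed to 39.4, 56.02 and 164 CPM in BMDM, against 23.5, 41.4 and 322 CPM in microglia, with overlap. Gfap was not called (-0.13 ± 0.48, adjusted p = 0.874). Of the 6 plasmacytoid dendritic cell markers tested, 2 were higher and 2 lower, of 5 oligodendrocyte markers 2 and 1, of 7 endothelial markers 1 and 1, and of 6 mural cell and fibroblast markers 0 and 2. No neuron or red cell marker was called of 6 and 3 tested. The part that such cells play in the differences above was not tested.

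Whether the difference between populations changed with tumour growth was asked by an interaction of population and stage. At the small stage alone, 3206 genes differed between BMDM and microglia (21.2%), with 1773 higher (11.7%) and 1433 lower (9.49%), and at the large stage 1391 (9.21%), with 1061 higher (7.03%) and 330 lower (2.18%). No gene was called for a difference between the stages in edgeR, with 734 at an unadjusted p under 0.05 and a smallest adjusted p of 0.635, and DESeq2 called 18. Among homeostatic genes, 18 of 19 were lower at the small stage and 13 of 19 at the large stage, with medians of -2.32 and -1.55. All 15 of the largest higher differences were called at each stage, and of the 15 lower ones all at the small and 13 at the large stage, Epn2 and Tppp being the exceptions. These genes were chosen from the same libraries for their lack of overlap over both stages. Their calls at each stage were largely fixed by that choice and are no separate support. Each population has 5 libraries at either stage. Of all named genes called over both stages, 33 kept their direction but were not called at the large stage, among them Sall1 (adjusted p = 0.0807 in edgeR), Sall3 (0.223), C1qa (0.163) and Mrc1 (0.155). At the small stage 6 were not called: Arg1, Ctss, Cxcl13, Il1b, Il1rn and Tlr3. Why fewer calls were kept at the large stage was not tested.

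The genes nearest to a stage difference were Nbea, a scaffold protein of vesicle traffic, and Ephb3, an ephrin receptor. Nbea differed by -3.32 ± 0.58 at the small and 0.15 ± 0.52 at the large stage, a change of 3.47 ± 0.76 (adjusted p = 0.635 in edgeR). Ephb3 differed by -4.86 ± 0.68 at the small and -1.30 ± 0.57 at the large stage, a change of 3.56 ± 0.84 (adjusted p = 0.635). Neither passed. For P2ry12 the difference was -2.92 ± 0.47 at the small and -2.22 ± 0.46 at the large stage (adjusted p = 0.9997 for the change), and for Cd74 it was 4.16 ± 0.53 and 4.32 ± 0.53 (adjusted p = 0.9997).

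The same comparison was made in libraries that it had not used, 14 of irradiated BMDM and 14 of irradiated microglia, taken 3, 5 or 10 days after 5 fractions of 2 Gy or 3 days after 1 dose of 10 Gy. Of 15595 genes tested, 7510 differed (48.2%), with 3737 higher in irradiated BMDM (24.0%) and 3773 lower (24.2%). Of the 2433 genes called higher without radiotherapy, 2225 were called higher after it (91.5%), which is 59.5% of the irradiated calls. Of the 2080 called lower, 1830 were called lower after it (88.0%), or 48.5% of the irradiated calls. All 30 of the largest differences were called the same way. Among homeostatic genes 19 of 19 were lower, Fcrls included (-0.72 ± 0.20, edgeR, adjusted p = 0.00389), and 22 of 22 recruited macrophage genes were higher. P2ry12 had 247 ± 84.97 CPM in irradiated BMDM and 1888 ± 627 CPM in irradiated microglia (SD, n = 14 each; -2.89 ± 0.16, adjusted p = 2.57e-12). Class II was higher in 10 of 12 members with a median of 2.53, against 3.34 without radiotherapy, and Cd74 had 4501 ± 969 CPM in irradiated BMDM and 430.3 ± 432 CPM in irradiated microglia (3.41 ± 0.39, adjusted p = 1.06e-07). Interferon-stimulated genes were higher in 26 of 28. Arg1 had 224 ± 304 CPM in irradiated BMDM and 15.9 ± 22.1 CPM in irradiated microglia (4.32 ± 0.91, adjusted p = 0.000384). Differences between the irradiated and unirradiated comparisons were not tested.

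**Figure D4:**
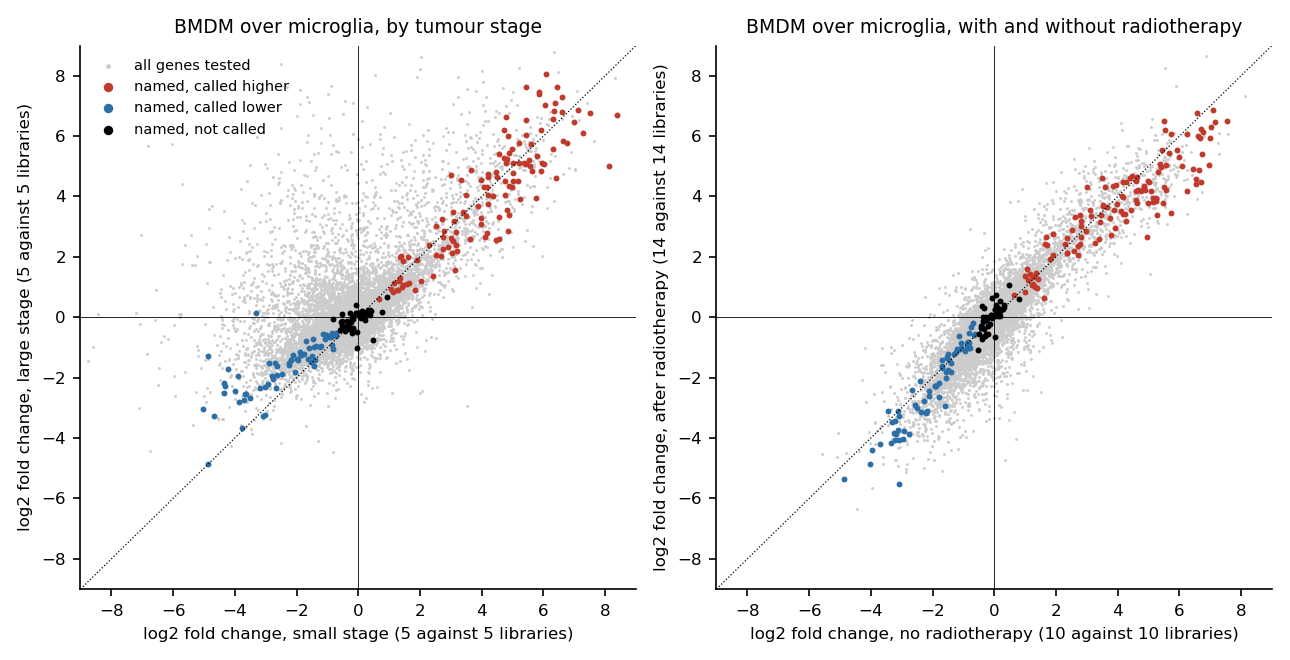
Log2 fold changes of BMDM over microglia at the large against the small stage (left) and in irradiated against unirradiated libraries (right), 1 point per tested gene, with genes named in the text coloured by their call (higher red, lower blue, not called black) and the diagonal dotted. The coloured points follow the diagonal in both panels, with the blue points of the left panel mostly above it, and run from -4.86 at Syt6 to 7.53 at Ear2 on the horizontal axis of the right panel.

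Levels in the other sorted populations of the series placed the same genes in a wider order, without a test. Ccr2 averaged 869 ± 360.3 CPM in BMDM (SD, n = 10) and 2796 ± 858 CPM in tumour monocytes, against 807 ± 789 CPM in blood monocytes and 17.1 ± 11.4 CPM in microglia of tumour-free brain. Ly6c2, at 9.28 ± 10.9 CPM in BMDM, was far higher in tumour monocytes, at 301 ± 224 CPM, and in blood monocytes, at 253 ± 319 CPM. Ccr7 showed the reverse order, with 933 ± 556 CPM in BMDM, 35.5 ± 40.7 CPM in tumour monocytes and 2.74 ± 2.77 CPM in blood monocytes. Cd74 stood at 4980.2 ± 1436 CPM in BMDM, 3047 ± 975 CPM in tumour monocytes and 868 ± 627 CPM in blood monocytes. Apoe stood at 10059.9 ± 2449 CPM in BMDM and 8941 ± 2221 CPM in tumour microglia, against 1193 ± 411 CPM in blood monocytes and 1235 ± 644 CPM in microglia of tumour-free brain. Sall1 was at 21.9 ± 32.9 CPM in BMDM, with large_BMDM 5 far above the rest, against 1.52 ± 1.35 CPM in tumour monocytes and 2.21 ± 2.04 CPM in blood monocytes. Slc2a5 stood at 4.50 ± 4.84 CPM in BMDM and 3.40 ± 2.53 CPM in blood monocytes. In blood monocyte library 4 alone, the one with fewer than 30000 genes detected, the levels were 1964 CPM of Ccr2, above the mean of BMDM, 716 CPM of Ly6c2, 0.0851 CPM of Ccr7, 1769 CPM of Cd74, 1784 CPM of Apoe, and 0 for Sall1 and Slc2a5. In Control_MG 1 and 4, Ccr2 had 11.6 and 3.95 CPM and Apoe had 656 and 762 CPM.

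**Figure D5:**
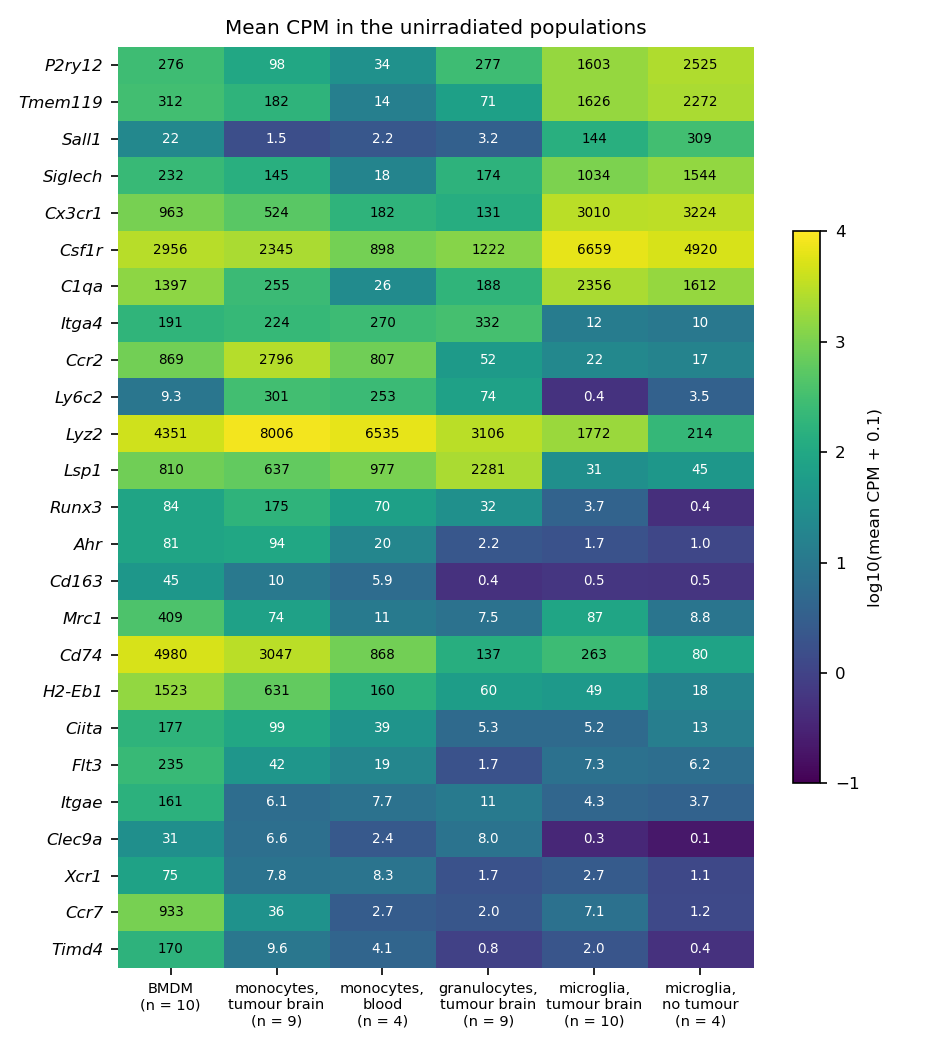
Mean level of 25 genes (rows) in 6 sorted populations (columns), with the mean CPM printed and coloured as log10 of CPM plus 0.1, after scaling over all libraries shown, the blood monocyte and tumour-free microglia libraries of many detected genes or few counts included. Homeostatic genes such as P2ry12 are highest in both kinds of microglia, Ly6c2 in monocytes, and Flt3 and Ccr7 in BMDM.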

How the data were processed

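RNA was sequenced from sorted myeloid cells of mouse brain and blood, and groups and replicate numbers were taken from the sample titles. The authors deposited 1 table of raw read counts per gene for 108 libraries, not normalized, with 49585 Ensembl gene IDs. Per the submitters' processing notes, the tools were FastQC, TopHat2 2.0.14, HTSeq and DESeq2 1.18.1 with the build GRCm38; no settings, strand mode or annotation release are given in the sources used here. Without strand, reads of overlapping antisense genes cannot be told apart, and reads shared by close gene copies were not resolved. Symbols came from the deposited table, which left 233 IDs without one, and 69 symbols belonged to several IDs. Coordinates came from GENCODE M21, which matched 49326 IDs. Promoters came from RefSeq (GRCm38.p6).

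The 20 unirradiated BMDM and microglia libraries were fitted alone in edgeR 4.0.16 (R 4.3.3) with 1 mean per population and stage, TMM scaling, genes kept by filterByExpr (minimum count 10, minimum total 15) and the quasi-likelihood test. Benjamini-Hochberg adjustment ran over all genes kept, with a threshold of 0.05. The stage difference was an interaction in the same fit, and the 28 irradiated libraries were fitted separately with 1 mean per population and schedule. Counts are not molecules, so depth limits low genes most. The test was checked on simulated data. Tables and figures used Python 3.11.15, pandas 2.3.3, numpy 2.4.6 and matplotlib 3.10.9.

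The members and the gene lists were chosen with earlier results of these data known. The text names the 15 largest differences in each direction without overlap and with 10 CPM or more in the higher population, up to 6 members per list with the smallest adjusted p, members of at least 10 CPM that did not pass, the genes nearest to a stage difference and 13 markers. Cx3cr1, Lyz2, Trem2, H2-Ab1, H2-DMa, H2-DMb1, H2-Ob, Ctss and Ifi30 were chosen after their values were seen. Alternatives were DESeq2 1.42.0, limma 3.58.1 (voom with sample weights), RLE scaling, other filters, each stage alone, all unirradiated tumour groups together, the replicate block and leaving out each library. A fit without the 3 libraries of over 30000 genes and one with the share of ribosomal protein counts as a term were chosen after seeing the data. Some genes that the naming rule would give are not reported here.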

Additional observations from a re-analysis of the deposited data

Results flagged for a closer look

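Within each group of 5 libraries, 1 library was looked for whose gap to the nearest other was most of the group's range (Dixon's 95% value). Of 128 groups tested, over 30 genes and 2 library measures, 13 had such a library, each as the highest of its group. Chance alone flags some of so many groups. How many is not known, since the 95% value assumes normally distributed values, which CPM need not be.

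Among BMDM, large_BMDM 5 had 113 CPM of Sall1, against 5.27 to 22.1 CPM in the other 4 libraries of its group. Large_BMDM 3 had 14773.5 CPM of Apoe, against 10910.0 to 11932.4 CPM, and large_BMDM 2 detected 31357 genes, against 16300 to 20045.

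Among microglia, large_Microglia 3 stood apart in 4 genes of recruited cells. It had 96.2 CPM of Ccr2 (4.51 to 23.6 CPM in the others), 16.6 CPM of Ciita (0.180 to 2.39), 15.6 CPM of Itgb7 (5.27 to 7.56) and 0.868 CPM of Ear2 (0 to 0.110). Small_Microglia 5 had 1.76 CPM of Ly6c2 (0 to 0.409) and 0.527 CPM of Ear2 (0 to 0.152). Large_Microglia 1 had 1644 CPM of Cxcl13 (137 to 441), small_Microglia 4 had 11.7 CPM of Arg1 (0.683 to 2.46) and small_Microglia 3 had 4.99 CPM of Epcam (0.759 to 1.67). Large_Microglia 5 held 18099551 counts, against 9375942 to 11550543 in the others.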

How the results depend on the processing

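With all unirradiated tumour groups fitted together, 2192 genes were called (1538 higher and 654 lower), with the large stage alone 1391 (1061 and 330), and limma voom called 3247 lower; DESeq2 called 18 genes for the stage difference, 18 higher, against 0 in edgeR. Leaving out 1 library gave 3766 to 4795 genes for BMDM against microglia (2100 to 2532 higher and 1589 to 2263 lower), 7174 to 7728 after radiotherapy (3385 to 3868 and 3547 to 4184) and 0 to 0 for the stage difference. The replicate block gave 4246 genes (2137 higher and 2109 lower), 8441 after radiotherapy (4099 and 4342) and 0 for the stage difference. In the 20 unirradiated libraries same numbers did not pair the samples: deviations correlated above 0.1 in 5 of 10 pairs (-0.216 to 0.480), and 4 of 10 BMDM libraries were most like their own number. Among unlike numbers the highest correlation was 0.455, between small_BMDM 4 and small_Microglia 3. Among equal numbers it was 0.480, between large_BMDM 5 and large_Microglia 5. These libraries also had the highest ribosomal shares of their groups. The block joins equal numbers only, so it does not check a pairing across other numbers, which was not tested. In the irradiated libraries all 11 pairs after 5 fractions were above 0.1 (0.152 to 0.528), as were 2 of 3 after the single dose (lowest 0.0355), and 13 of 14 BMDM libraries were most like their own number, a hint from the data and not the design. There 7297 genes were called the same way with and without the block, which kept the calls given for Fcrls, P2ry12, Cd74, Arg1 and the 30 largest differences, and gave 11 of 12 class II genes higher. The other counts over all genes stayed within 1.5 times. Among the gene lists, the ribosomal share term left 8 of 28 interferon-stimulated genes higher and raised the lower calls of the mitosis and Toll-like receptor lists to 5 each. Without the 3 libraries of over 30000 genes, cytokine ligands gave 4 higher and 0 lower, growth factors 4 and 5, and NK markers 2 higher. The block left 1 B cell marker higher and gave 6 lower interleukin receptors. Over genes of 10 CPM or more alone, no mitosis gene was called (0 of 16) and 3 of 14 purinergic genes were higher. Limma voom called 3 lysosomal genes higher and 16 lower, and 5 and 5 cytokine ligands. Of 234 named genes tested, 188 passed, and 148 of these kept their call in every alternative. Nbea, which was lower over both stages, was at 0.15 in the large stage alone (not called), and no other named gene turned its direction in this way. Limma voom called C3ar1, Ccl2, Ctsb and Irf8. Without a filter on low counts the median of all genes shifted by -0.12 (log2), by -0.26 after radiotherapy and by 1.48 for the stage difference. The sort markers are not stated in the labels, the libraries may share animals, and genes under about 1 CPM rest on few counts. The causes were not tested.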
